A study of Mus musculus with 10 samples.

Results

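Genes of cholesterol and fatty acid synthesis were followed in primary cortical cultures of newborn FVB mice that were left untreated or depolarized with KCl. The group holds 32 named genes: 7 of the mevalonate steps, 11 of the squalene and sterol steps, 6 regulators and carriers of sterol, and 8 of fatty acid synthesis and desaturation. Each gene was represented by its listed transcript with the highest mean RNAseq count. A transcript was listed for 25 of the 32 genes, and 22 of them were measured at a level that entered the tests, out of 7262 transcripts tested in all. Acat2, Idi1, Fdps, Fasn, Elovl6, Scd1 and Fads2 were not analysed here.

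The cultures were mixtures of neurons and glia kept for 7 days in vitro from postnatal day 0 cortex (FVB pups). Untreated cultures 1, 2 and 3 received no KCl, and cultures 4 and 5 received KCl to 55 mM for 3 h. All 5 cultures, controls included, received cycloheximide, a drug that stalls ribosomes on mRNA, at 100 ug/ml for 7 min before lysis. RNAseq of total RNA measured transcript abundance, and ribosome footprinting (RF), which sequences the mRNA fragments that ribosomes protect from RNase, measured the occupancy of the coding sequence. Translational efficiency (TE) is the ratio of the latter to the former.

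Cells build cholesterol from acetyl-CoA in a long chain of reactions: the mevalonate steps make isoprene units, squalene is assembled from them and closed into a ring, and a series of sterol enzymes trims the ring to cholesterol. Transcription of this chain is driven by the factors SREBP1 and SREBP2, encoded by Srebf1 and Srebf2. When membrane sterol is low, the escort protein Scap carries SREBP from the endoplasmic reticulum to the Golgi for cleavage, and when sterol is high the Insig proteins hold Scap back. The brain makes its own cholesterol because lipoproteins of the blood do not cross the blood-brain barrier, and glia, astrocytes above all, are a main source for neurons.

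Between 3056286 and 3629959 reads were counted in the RNAseq libraries and between 1463654 and 7719915 in the RF libraries. Untreated culture 3 and KCl culture 4 had the fewest footprints, and 9 of the 22 measured members had fewer than 50 coding footprints in at least 1 library, the lowest being Mvk with 14. Levels are given as normalized RPKM, reads per kilobase scaled to the library's reads on the tested transcripts and by TMM, over the whole transcript for RNAseq and over the coding sequence for RF. The level required for the tests, at least 10 RPKM, was instead scaled to all reads counted in the library, without TMM. That scale gives lower values, so a normalized RPKM above 10 can lie below the minimum. The files mark the regions of a transcript by letters only, and these were read as 5′UTR, coding sequence and 3′UTR because their shares of reads followed the annotated lengths. The depolarization marker Fos rose by 1.59 on the log2 scale in RNAseq (adjusted p = 2.9e-09) and by 2.33 in RF (adjusted p = 4e-15, both edgeR). The labels do not say whether the cultures came from separate litters, so p-values measure the spread between these cultures only.

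In untreated cultures the members spanned a wide range of abundance (see the plot of untreated levels). Scd2, the main stearoyl-CoA desaturase of brain, had 556 ± 30.5 normalized RPKM in RNAseq (SD, n = 3), above 98.9% of the tested transcripts. Fads1, the delta-5 desaturase of polyunsaturated fatty acids, followed with 282 ± 21.8. Hmgcs1, which makes the HMG-CoA that enters the mevalonate steps, had 114 ± 8.76 and Sqle, the squalene epoxidase, 112 ± 1.49. Hmgcs1 and Sqle did not differ beyond their spread. Msmo1, the sterol C4-methyl oxidase, had 87.3 ± 1.54, and the remaining measured members lay between 7.67 (Sc5d, the lathosterol desaturase) and 56.4 (Pmvk, the phosphomevalonate kinase). The median of the 22 members was 33.7 against 27.1 for all tested transcripts.

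**Figure D1:**
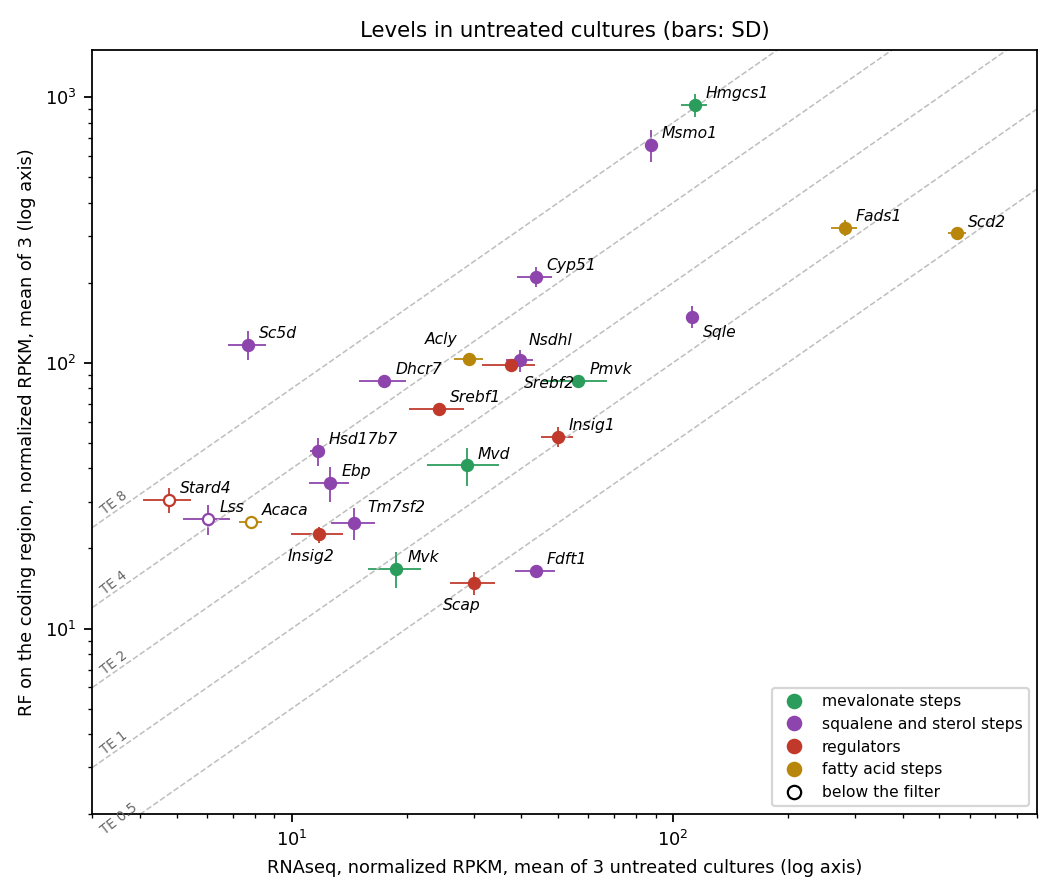
RNAseq (x axis) and coding-sequence RF (y axis) of the 25 listed members in normalized RPKM, both axes logarithmic. Points are means of the 3 untreated cultures, bars are SD, colors are roles, open points are the 3 members below the filter, and dashed lines mark equal TE. Scd2 and Fads1 lie farthest to the right, and Hmgcs1 and Msmo1 lie highest.

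The order changed on the ribosome. Hmgcs1 had the highest footprint density of the members, 933 ± 90.9 normalized RPKM (SD, n = 3), above 99.0% of the tested transcripts, and Msmo1 followed with 659 ± 91.1. Their TE was 8.22 ± 1.31 and 7.56 ± 1.14, above 98.4% and 97.9% of the tested transcripts, while the median was 2.28 for the 22 members and 1.81 for all transcripts. Cyp51, the lanosterol demethylase, had a TE of 4.84 ± 0.293, and Dhcr7, which reduces 7-dehydrocholesterol to cholesterol, 4.93 ± 0.699. At the low end stood Fdft1 (squalene synthase) with 0.382 ± 0.0676, Scap with 0.502 ± 0.103 and Scd2 with 0.553 ± 0.0486.

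TE of several members depended on which RNAseq reads were used. The highest TE, 15.5 ± 3.45 for Sc5d, became 5.58 ± 1.75 when only RNAseq reads on the coding sequence were counted. RNAseq density on the coding sequence of Sc5d was 5.71 times that on its 3′UTR of 3750 nt, against a median of 0.662 over the tested transcripts. Scd2 stood at the other end with a ratio of 0.0677, and its TE rose to 5.86 ± 0.724 on coding reads alone, 10.6 times higher. For Fdft1, 459 untreated RNAseq reads lay on a transcript region that the sources used here do not name, 119 on the coding sequence and 368 on the 3′UTR, and its TE on coding reads was 1.32 ± 0.205. Exons of Fdft1 also share 771 bases with Ctsb on the other strand. The TE of Hmgcs1 (16.5 ± 4.15) and Msmo1 (12.5 ± 2.57) stayed high on coding reads alone, and that of Scap (0.521 ± 0.0921) stayed low.

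To ask whether depolarization altered this pathway, untreated and KCl cultures were compared with edgeR's quasi-likelihood test, with Benjamini-Hochberg adjustment over all 7262 transcripts. In RNAseq, 9 of the 22 members rose and 1 fell at an adjusted p under 0.05, where 17.9% of all tested transcripts rose and 15.1% fell. RF gave 9 rises and 2 falls, where 20.8% of all transcripts rose and 20.1% fell. The RF counts were lower with a KCl culture left out, as given in the last section. Counts in both assays also depend in part on the filter. Of the 22 members, 7 (Sc5d, Hsd17b7, Insig2, Mvk, Scap, Ebp and Tm7sf2) did not reach the minimum of 10 RPKM in 2 cultures of each group, and 3 of the RNAseq rises and every fall in either assay lay among them. Over the other 15 members, a count added after the data were seen, 6 rose in RNAseq and 7 in RF and 0 fell in either, where 17.9% and 22.6% of the 5252 transcripts chosen in this way rose and 10.3% and 14.5% fell. Cyp51, Insig1, Sc5d, Sqle, Msmo1, Hsd17b7, Srebf2 and Acly rose in both assays, Mvk fell in both, and 10 members passed in neither. The median log2 fold change of the 22 members was 0.25 in both assays, against 0.00 in RNAseq and -0.01 in RF for all transcripts. With library totals in place of TMM the medians of all transcripts moved to -0.10 and -0.14 and those of the members to 0.15 and 0.12. Both KCl cultures lay above all untreated cultures for 10 of the 22 members in RNAseq and 12 in RF (27.6% and 30.2% of all transcripts), and below them for 1 and 3 members (27.2% and 31%).

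**Figure D2:**
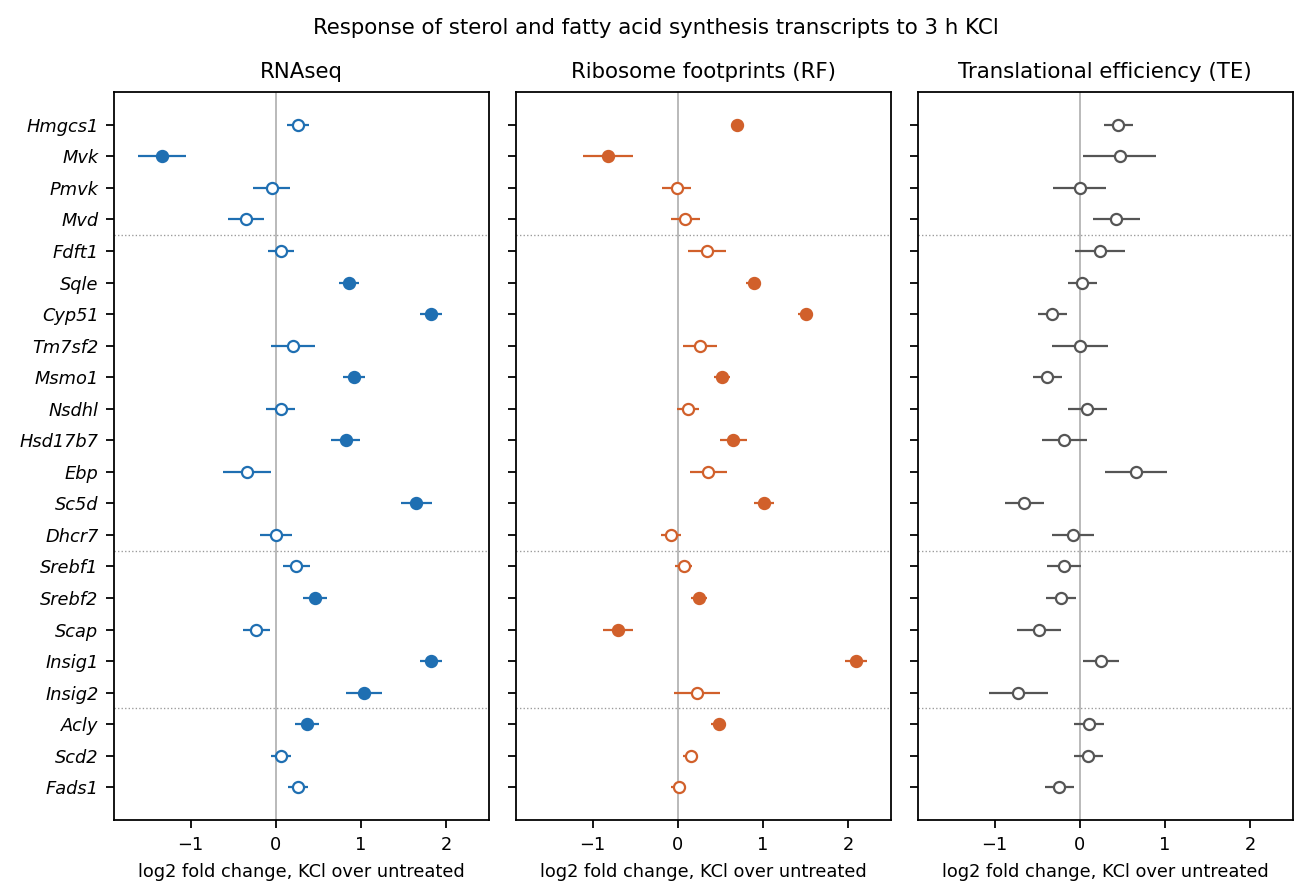
Log2 fold changes of KCl over untreated cultures for the 22 measured members in RNAseq, RF and TE. Bars are approximate SE, filled points have an adjusted p under 0.05 (edgeR), and dotted lines part mevalonate steps, squalene and sterol steps, regulators and fatty acid steps. Cyp51, Insig1 and Sc5d lie farthest to the right in RNAseq and RF, Mvk lies to the left in both, and no TE point is filled.

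In the squalene and sterol steps 5 of 10 measured members rose in RNAseq and the same number in RF, and none fell in either (17.9% and 20.8% of all transcripts rose). Of these 5, Sc5d and Hsd17b7 entered the tests only through the KCl cultures. The largest was that of Cyp51, on chromosome 5 of GRCm38 from 4081145 to 4104746, measured by a transcript of 10 exons. Its RNAseq level was 38.6, 44.8 and 47.4 normalized RPKM in untreated cultures 1, 2 and 3 and 163 and 145 in KCl cultures 4 and 5. Its RF density was 191, 227 and 214 without KCl and 615 and 577 with it. In each assay both KCl cultures lay far above all untreated cultures. The fold was 3.53 in RNAseq (log2 1.82, SE, the standard error, 0.13, adjusted p = 1.9e-14) and 2.83 in RF (log2 1.50, SE 0.09, adjusted p = 6.4e-14, edgeR). Cyp51 exons share 166 bases with Akap9 on the other strand.

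Sc5d, on chromosome 9 from 42251595 to 42264256, acts near the end of the chain. It had 8.05, 6.68 and 8.28 normalized RPKM in RNAseq without KCl and 24.8 and 23.5 with KCl, and 100, 128 and 122 against 245 and 224 in RF. Groups did not overlap in either assay. The log2 fold change was 1.65 in RNAseq (SE 0.18, adjusted p = 7.7e-10) and 1.01 in RF (SE 0.12, adjusted p = 1.3e-07, edgeR). Sc5d passed the filter only through the KCl cultures, since its untreated RNAseq RPKM was below 10, so its place among the measured members is not independent of its rise.

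Sqle catalyzes a rate-limiting step of sterol synthesis and lies on chromosome 15 from 59315081 to 59331192. Its RNAseq level was 110, 113 and 113 normalized RPKM without and 210 and 197 with KCl, and its RF density was 133, 157 and 156 without and 266 and 279 with KCl. It rose by 0.86 in RNAseq (SE 0.12, adjusted p = 4.5e-07) and by 0.89 in RF (SE 0.09, adjusted p = 1.2e-08, edgeR) on the log2 scale, and the groups did not overlap. Of the untreated RNAseq reads of Sqle, 1073 lay on the 5′UTR and 760 on the coding sequence. The rise was also present in coding reads alone, with a log2 ratio of group means of 0.90.

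Msmo1, on chromosome 8 from 64718139 to 64733792, rose in both assays, and the difference between them is the TE change given with the other TE values. Its RNAseq level went from 89.1, 86.3 and 86.6 to 174 and 157 normalized RPKM, a log2 fold change of 0.92 (SE 0.13, adjusted p = 4.6e-07). Its RF density went from 601, 764 and 613 to 981 and 926, a log2 fold change of 0.52 (SE 0.09, adjusted p = 7.6e-05, edgeR). The groups were separate in both assays.

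Hsd17b7, a keto-reductase of the sterol steps on chromosome 1, also rose in both assays but with less support. Its RNAseq level was 12.1, 11.1 and 11.9 without and 21.3 and 20.0 with KCl (log2 0.82, SE 0.17, adjusted p = 0.00019), and its RF density was 40.4, 48.0 and 51.4 without and 79.9 and 65.3 with KCl (log2 0.65, SE 0.16, adjusted p = 0.00211, edgeR). On the 3′UTR the RNAseq groups were separate, with a log2 ratio of means of 0.94. Reads on the coding sequence, as RPM after the same scaling, were 13.6, 8.19 and 12.3 without KCl and 12.7 and 16.1 with KCl, which overlap, and on coding reads alone the log2 fold change was 0.39 (adjusted p = 0.454). Hsd17b7 passed the filter only through the KCl cultures, and without KCl culture 4 its RF call was lost (adjusted p = 0.0588, edgeR).

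The other measured sterol members did not pass in either assay. Fdft1, Tm7sf2 (a sterol C14 reductase), Nsdhl (a sterol dehydrogenase), Ebp (a sterol isomerase) and Dhcr7 had RNAseq log2 fold changes between -0.34 (Ebp, SE 0.28) and 0.20 (Tm7sf2, SE 0.26). Their RF changes lay between -0.08 (Dhcr7, SE 0.12) and 0.36 (Ebp, SE 0.22). For Nsdhl, with 0.06 in RNAseq (SE 0.17) and 0.12 in RF (SE 0.13), changes as large as those of Cyp51 lie far outside the error. Fdft1 and Ebp had RF values above all untreated values in both KCl cultures, and Dhcr7 below them, without passing the test.

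**Figure D3:**
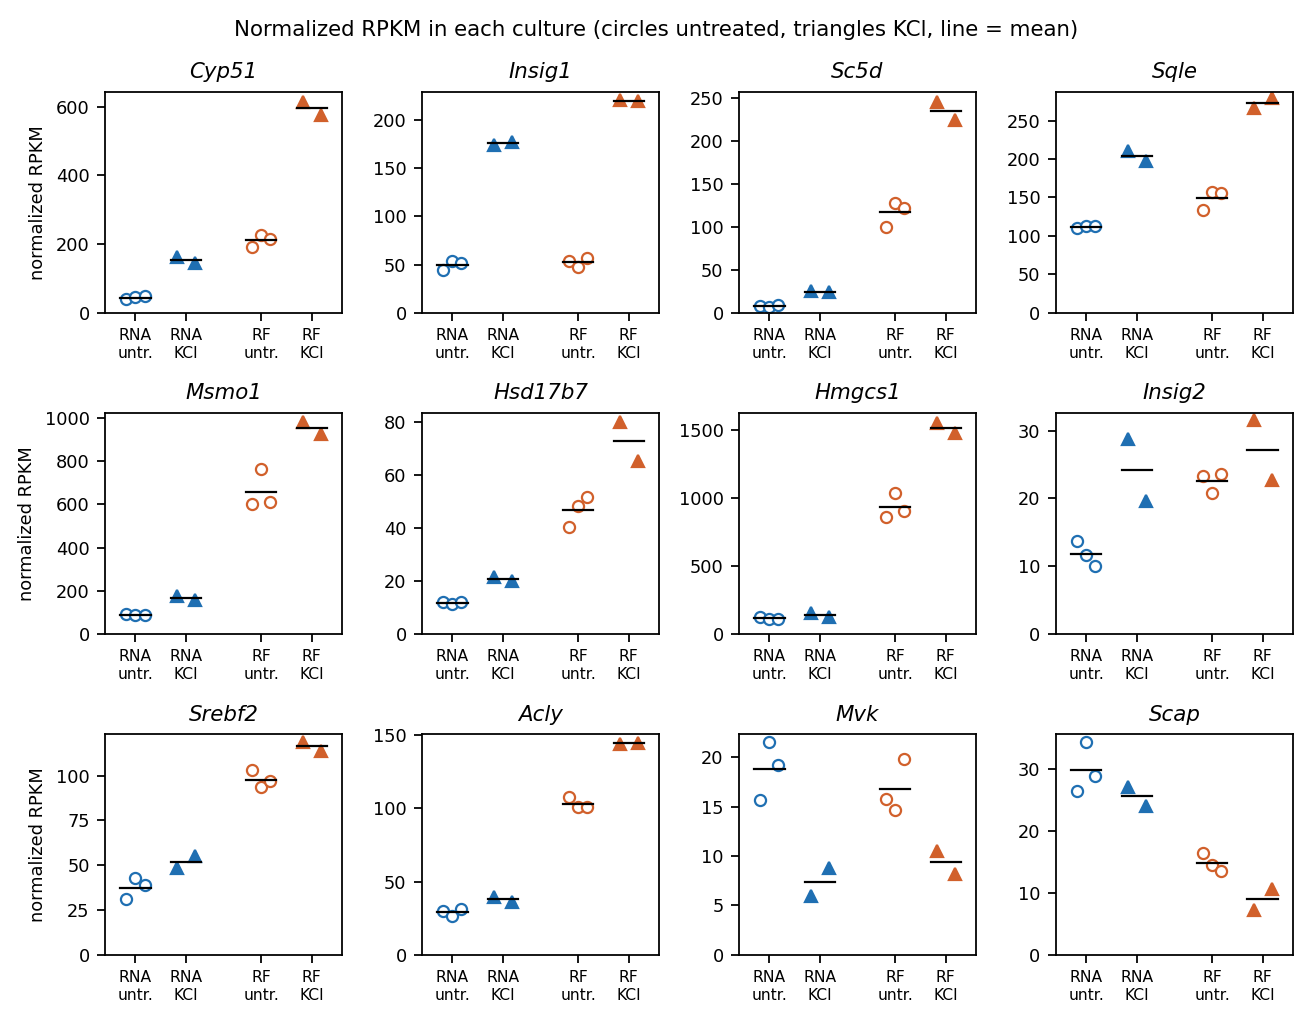
Normalized RPKM of 12 members in every culture, RNAseq in blue and RF in orange, circles for untreated cultures 1 to 3, triangles for KCl cultures 4 and 5, and lines for group means. All axes start at 0. For Cyp51, Insig1, Sc5d, Sqle, Msmo1 and Hsd17b7 both KCl cultures lie above all untreated cultures in both assays, and for Mvk they lie below them.

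In the mevalonate steps 4 members were measured, and they did not move together. Hmgcs1, on chromosome 13 from 119690446 to 119708082, had an RNAseq level of 124, 109 and 110 normalized RPKM without and 152 and 122 with KCl. These groups overlap, and the log2 fold change of 0.26 (SE 0.13) had an adjusted p of 0.123, or 0.0288 without untreated culture 1. Footprints on Hmgcs1 went from 857, 1034 and 908 normalized RPKM to 1557 and 1482, with no overlap. The RF log2 fold change was 0.70 (SE 0.08, adjusted p = 5.7e-08, edgeR) and it passed in all 13 alternatives run for RF. Hmgcs1 exons share 557 bases with the annotated gene Gm48342 on the other strand.

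Mvk, the mevalonate kinase, was the only measured member called lower in RNAseq, and it passed the filter only through the untreated cultures, in which it was higher. It lies on chromosome 5 from 114444306 to 114460591. It had 15.7, 21.6 and 19.2 normalized RPKM without KCl and 5.94 and 8.83 with KCl, a log2 fold change of -1.34 (SE 0.28, adjusted p = 0.00022, edgeR) that passed in all 13 alternatives it entered. Footprints were few, with 108, 86 and 25 reads on the coding sequence in untreated cultures 1, 2 and 3 and 14 and 21 in cultures 4 and 5. The RF log2 fold change was -0.82 (SE 0.29, adjusted p = 0.0251). It lost its call in DESeq2 (adjusted p = 0.103) and in edgeR without KCl culture 4 (0.0512) or 5 (0.328). Pmvk and Mvd (the mevalonate diphosphate decarboxylase) did not pass in either assay, with RNAseq log2 fold changes of -0.05 (SE 0.22) and -0.35 (SE 0.21). Without untreated culture 1, Mvd had an RNAseq log2 fold change of -0.52 with an adjusted p of 0.0369.

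Among the 5 measured regulators, 3 rose in RNAseq, where 17.9% of all transcripts rose. In RF 2 rose and 1 fell, where 20.8% of all transcripts rose and 20.1% fell. Insig2, which rose in RNAseq, and Scap, which fell in RF, did not reach the minimum in 2 cultures of each group. Both Insig genes rose in RNAseq, and the difference between their RF changes was not tested. Insig1, on chromosome 5 from 28071363 to 28078662, had 44.6, 54.1 and 51.1 normalized RPKM in RNAseq without KCl and 174 and 178 with KCl. Its RF density rose from 53.9, 47.6 and 56.6 to 221 and 220, the largest RF change of all members. The log2 fold change was 1.82 in RNAseq (SE 0.13, adjusted p = 3.4e-14) and 2.09 in RF (SE 0.13, adjusted p = 6e-13, edgeR), a 4.25-fold rise in footprints. All KCl values lay above all untreated values.

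Insig2, on chromosome 1 from 121304353 to 121328024, rose in RNAseq from 13.7, 11.6 and 10 normalized RPKM to 28.8 and 19.6, a log2 fold change of 1.03 (SE 0.21, adjusted p = 0.00011, edgeR). Its RF density was 23.3, 20.8 and 23.6 without and 31.6 and 22.7 with KCl. The RF groups overlap, and the log2 fold change of 0.23 (SE 0.27) had an adjusted p of 0.528. These RF values rest on 91, 69 and 17 reads without KCl and 24 and 33 with it. The 4 listed Insig2 transcripts carried identical coding reads in every library, so isoforms cannot be told apart in RF. Insig2 passed the filter in 1 untreated culture and both KCl cultures.

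Srebf2 had an RNAseq level of 30.9, 42.6 and 39.0 normalized RPKM without and 48.2 and 54.9 with KCl, and an RF density of 103, 93.7 and 97.0 without and 119 and 114 with KCl. Both changes were small, 0.46 in RNAseq (SE 0.14, adjusted p = 0.0107) and 0.25 in RF (SE 0.09, adjusted p = 0.0268, edgeR). The RNAseq call was lost without KCl culture 5 (adjusted p = 0.164), and on coding reads alone (0.176). The RF call was lost without KCl culture 4 (0.196) or 5 (0.126), in DESeq2 (0.0641) and with library totals (0.31). Srebf1 did not pass, with 20.3, 28.3 and 24.4 against 24.9 and 32.4 in RNAseq (log2 0.24, SE 0.16) and 64.3, 67.9 and 68.5 against 68.2 and 71.3 in RF (log2 0.07, SE 0.10).

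Scap was the regulator called lower in RF, and it passed the filter only through 2 untreated cultures, in which it was higher. RNAseq was 26.5, 34.4 and 29.0 without and 27.2 and 24.1 normalized RPKM with KCl, which overlap (log2 -0.23, SE 0.16, adjusted p = 0.281). RF was 16.4, 14.6 and 13.5 without and 7.20 and 10.7 with KCl, both below all untreated cultures. The RF log2 fold change was -0.70 (SE 0.18, adjusted p = 0.00295, edgeR), and without KCl culture 4, which had 31 coding footprints, it was -0.50 (adjusted p = 0.0924). Scap exons share 785 bases with the annotated gene 5830462I19Rik on the other strand.

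Of the fatty acid steps 3 members were measured, and 1 of them rose in each assay. Of all transcripts 17.9% rose in RNAseq and 20.8% in RF, so 1 of 3 is not read as a trait of these steps. Acly, the ATP citrate lyase that supplies cytosolic acetyl-CoA, had an RF density of 108, 101 and 101 normalized RPKM without and 144 and 145 with KCl. Its RF groups were far apart for their spread, with a log2 fold change of 0.48 (SE 0.09, adjusted p = 4.5e-05, edgeR) that passed in all 13 alternatives. RNAseq was 30.2, 26.4 and 31.0 without and 39.3 and 36.3 with KCl (log2 0.37, SE 0.14, adjusted p = 0.0435). This RNAseq call was lost in 9 of 14 alternatives, with DESeq2 (adjusted p = 0.06) and without untreated culture 2 (0.177), untreated culture 3 (0.0518), KCl culture 4 (0.29) or KCl culture 5 (0.11) among them.

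The desaturases, which were the most abundant members, did not pass. Scd2 had 524, 560 and 584 normalized RPKM in RNAseq without and 613 and 544 with KCl (log2 0.06, SE 0.12), and 309, 320 and 291 against 353 and 334 in RF (log2 0.15, SE 0.09, adjusted p = 0.174). Fads1 had 259, 303 and 285 against 339 and 335 in RNAseq (log2 0.26, SE 0.12, adjusted p = 0.106) and an RF log2 fold change of 0.01 (SE 0.09). At these depths a change of Scd2 or Fads1 as large as that of Sqle lies well outside the error. In RF, at the same SE of 0.09, changes of 0.48 (Acly) and 0.25 (Srebf2) were called, that of Srebf2 with little support. Changes near the SE cannot be told from 0.

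The rise of RNAseq was examined in coding and 3′UTR reads separately, since RNAseq reads of a transcript came mostly from its 3′UTR for many members. For the 9 members that rose, the log2 ratio of KCl to untreated group means lay between 0.26 (Srebf2) and 1.61 (Cyp51) on the coding sequence and between 0.39 (Acly) and 1.98 (Insig1) on the 3′UTR. Both KCl cultures lay above all untreated cultures in 3′UTR reads for all 9 and in coding reads for 8, the exception being Hsd17b7. These reads are part of the counts by which the 9 were chosen, so their separation is no independent support for the rise. Tested on coding reads alone, 6 members were called higher and 1 lower. In that fit Srebf2 (adjusted p = 0.176), Acly (0.107) and Hsd17b7 (0.454) lost their calls (edgeR). The share of all transcripts called in it is not given here, so the counts of 6 and 1 are not set against a background. For Insig1 coding reads were 23.7, 33.9 and 35.6 normalized RPM without and 80.5 and 96.4 with KCl.

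Promoters of the members were read from the RefSeq table of GRCm38.p6, which spans 250 bases before to 50 after each start and matched 25 of the 32 genes. The 5 windows below belong to the members with the largest RNAseq rises in the table (Cyp51, Insig1 and Sc5d), to Hmgcs1, whose footprints rose, and to Mvk, which fell. Each shows 150 bases, 5′ to 3′ on the strand of the gene, that end before the more upstream of the RefSeq start and the start of the transcript used here. Capitals mark whole matches, on either strand, to TCACCCCAC (the core letters of a sterol regulatory element, to which SREBP binds), CCAAT (NF-Y), GGGCGG (Sp1) and CACGTG (E-box).
Cyp51, chr5:4104747-4104896, minus strand: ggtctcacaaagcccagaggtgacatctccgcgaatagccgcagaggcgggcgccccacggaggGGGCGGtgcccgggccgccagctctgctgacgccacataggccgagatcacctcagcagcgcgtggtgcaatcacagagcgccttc
Insig1, chr5:28071213-28071362, plus strand: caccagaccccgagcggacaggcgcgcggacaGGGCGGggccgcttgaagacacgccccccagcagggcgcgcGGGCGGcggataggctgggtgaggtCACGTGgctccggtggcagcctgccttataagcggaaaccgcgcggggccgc
Sc5d, chr9:42264301-42264450, minus strand: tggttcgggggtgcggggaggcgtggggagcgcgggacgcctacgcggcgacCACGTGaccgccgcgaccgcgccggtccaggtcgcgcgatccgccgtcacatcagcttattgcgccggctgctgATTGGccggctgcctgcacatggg
Hmgcs1, chr13:119690201-119690350, plus strand: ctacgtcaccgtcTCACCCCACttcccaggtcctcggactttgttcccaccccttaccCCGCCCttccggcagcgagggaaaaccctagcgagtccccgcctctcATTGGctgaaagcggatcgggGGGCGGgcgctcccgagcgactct
Mvk, chr5:114444119-114444268, plus strand: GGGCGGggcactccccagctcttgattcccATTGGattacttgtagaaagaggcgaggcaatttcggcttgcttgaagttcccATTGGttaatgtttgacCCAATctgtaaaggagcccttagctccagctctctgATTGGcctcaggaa

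Of the 25 members in the promoter table, only Hmgcs1 held TCACCCCAC, 137 bases before its start, and allowing any base at the middle position (TCACNCCAC) added no further member. These letters occur in 0.614% and 1.44% of all 27025 genes of the table. CCAAT was found in 20 of the 25 members (41.1% of all genes), GGGCGG in 21 (38.2%) and CACGTG in 5 (8.09%), on either strand and in any promoter of the gene. Mvk, which fell, held CCAAT and GGGCGG as did Cyp51 and Insig1, which rose. Some of these matches lie outside the windows shown. A match is a description of letters. Only these letters were searched, so a member without TCACCCCAC or TCACNCCAC is not shown to lack a site to which SREBP binds. Sqle, Fdft1, Stard4, Scd2 and Fads1 have no entry in the table.

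No member changed in TE at an adjusted p under 0.05 (edgeR, interaction of assay and KCl with culture as a block), where 1.53% of all transcripts rose and 4.27% fell. Over the 15 members that reached the minimum in 2 cultures of each group the count was also 0, where 1.6% of transcripts rose and 3.62% fell. At an unadjusted p under 0.05 there were 4 of 22, with Hmgcs1 higher and Msmo1, Sc5d and Insig2 lower, where 7.09% of all transcripts were higher and 9.85% lower at that threshold, and DESeq2 gave 3 at an unadjusted and 0 at an adjusted p under 0.05. The TE of Hmgcs1 was 6.89, 9.51 and 8.26 in untreated cultures 1, 2 and 3 and 10.3 and 12.1 in KCl cultures 4 and 5. Its groups were separate, with a log2 fold change of 0.45 (SE 0.17, adjusted p = 0.0835) that ranged from 0.33 to 0.58 over the alternatives. It passed in 2 of 15 alternatives, without untreated culture 2 (adjusted p = 0.0196) and on coding RNAseq reads alone (0.037, both edgeR).

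For Sc5d the TE was 12.4, 19.2 and 14.7 without and 9.87 and 9.53 with KCl (log2 -0.65, SE 0.23, adjusted p = 0.0703, edgeR). It passed in 2 of 14 alternatives, without untreated culture 1 (0.0108) and with library totals (0.0473). Insig2 had a TE of 1.70, 1.79 and 2.36 without and 1.10 and 1.16 with KCl (log2 -0.72, SE 0.35, adjusted p = 0.275). It passed in 1 of 14 alternatives, with reads summed over its transcripts, where the change was -1.05 (adjusted p = 0.00617, edgeR). That sum counts shared reads more than once. Msmo1 had 6.75, 8.86 and 7.07 against 5.65 and 5.90 (log2 -0.38, SE 0.17, adjusted p = 0.204), and passed in 1 of 15 alternatives, without untreated culture 1 (0.0372, edgeR). The SE of the 22 TE changes lay between 0.17 and 0.43. A TE change as large as the RNAseq rise of Cyp51 (1.82) would lie far outside the error for the deeper members. At the lowest SE of 0.17, TE changes of 0.45 (Hmgcs1) and -0.38 (Msmo1) did not pass. TE changes as small as the RNAseq rises of Srebf2 (0.46) or Acly (0.37) could thus be missed. The fit without the replicate block also gave 0 members.

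Footprints outside the coding sequence were few for most members and many for Scd2. Its 5′UTR of 714 nt carried 8584 RF reads in the 3 untreated cultures, against 3943 on the coding sequence of 1074 nt, which is 1202 and 367 reads per 100 nt. The ratio of 2.18 lies above 99.5% of 6460 tested transcripts with a 5′UTR of at least 50 nt, whose median was 0.0502, and 109 of them (1.69%) had more footprints on the 5′UTR than on the coding sequence. Footprints on the 5′UTR of Scd2 were 684, 767 and 804 normalized RPM without KCl and 622 and 666 with KCl, below all untreated cultures, while those on its coding sequence lay above them. They made up 66.7%, 68.5% and 70.2% of all Scd2 footprints without and 62.0% and 64.2% with KCl. No test was applied to this shift, and an exact permutation of 3 cultures against 2 cannot give a two-sided p below 0.1. Scd2 exons share 61 bases with the annotated gene Mir5114 on the same strand, and where these lie in the transcript was not examined.

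**Figure D4:**
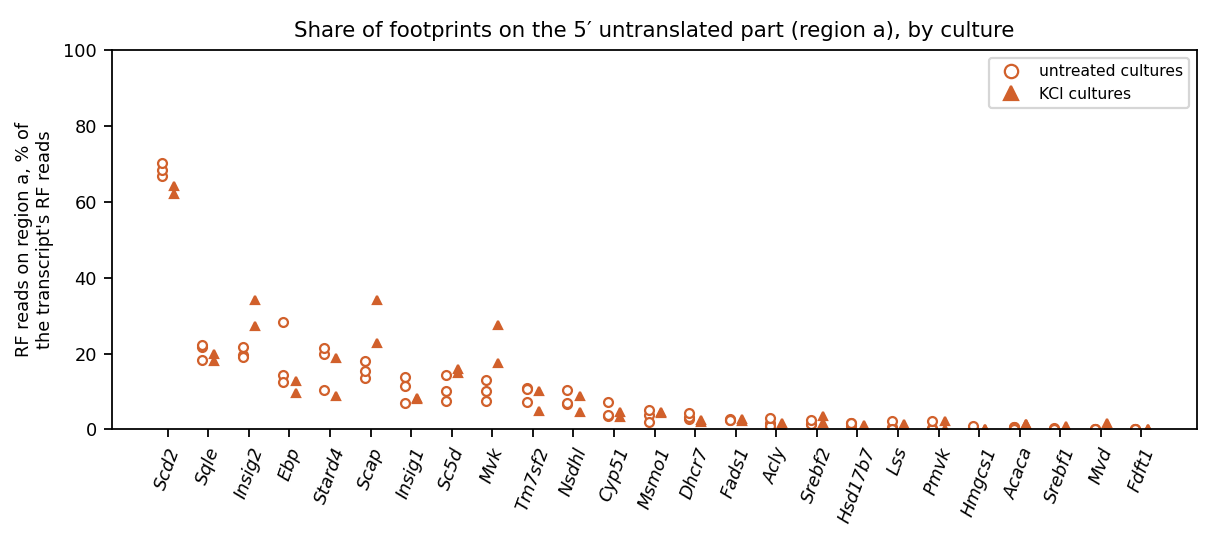
Share of the RF reads of each listed member that lay on the 5′UTR (y axis, percent), with circles for the 3 untreated cultures and triangles for the 2 KCl cultures, ordered by the untreated mean. Scd2 stands at 62.0% to 70.2%, and no other member exceeds 34.0%.

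Among the 25 listed members the 5′UTR share was higher in both KCl cultures than in all untreated cultures for 5 (Mvk, Sc5d, Scap, Insig2 and Acaca) and lower for 3 (Hmgcs1, Dhcr7 and Scd2). For Scap it was 17.9%, 13.5% and 15.4% without and 34.0% and 22.8% with KCl, for Insig2 19.5%, 21.6% and 19.0% against 27.3% and 34.0%, and for Mvk 10%, 13.1% and 7.41% against 17.6% and 27.6%. The KCl shares rest on 16 and 26 footprints on the 5′UTR of Scap, 9 and 17 on that of Insig2 and 3 and 8 on that of Mvk. For Sc5d, whose coding footprints rose, the share was 14.4%, 7.35% and 10% without and 14.8% and 15.8% with KCl, on 43 and 81 footprints with KCl. Higher shares thus occurred for members whose coding footprints rose and for members whose coding footprints fell, and none of these shifts was tested. The same count was not made over all transcripts, so 5 and 3 of 25 are not read as a trait of these members.

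Lss, Stard4 and Acaca were listed below the filter, and no call is made for them in the tests above. Stard4, a carrier of sterol between membranes, had 72, 60 and 52 RNAseq reads without KCl and 181 and 183 with KCl, and 105, 111 and 22 coding footprints against 71 and 125. In a fit of all transcripts with at least 1 read, in which 10.4% of transcripts rose in RNAseq and 13.4% in RF, the log2 fold change of Stard4 was 1.60 in RNAseq (SE 0.21, adjusted p = 1.7e-12) and 1.63 in RF (SE 0.20, adjusted p = 5.3e-15, edgeR). Stard4 has 3 listed transcripts. Lss, the lanosterol synthase, had 80, 76 and 58 RNAseq reads against 81 and 86 and 377, 253 and 58 footprints against 74 and 174, with an RF log2 fold change of 0.43 (SE 0.16, adjusted p = 0.028, edgeR) in that fit and none called in RNAseq. Acaca, the acetyl-CoA carboxylase that commits acetyl-CoA to fatty acids, had 206, 187 and 171 RNAseq reads against 177 and 214 and 993, 893 and 191 footprints against 215 and 375, and its log2 fold changes were 0.08 and 0.10 (adjusted p = 0.805 and 0.583).

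Other genes of sterol homeostasis were taken from a list of 28, of which 14 were measured. In RNAseq 4 rose and 2 fell, and in RF 5 rose and 4 fell. The shares of all transcripts to set beside these and the following lists are 17.9% higher and 15.1% lower in RNAseq, 20.8% and 20.1% in RF, and 1.53% and 4.27% in TE. Thrsp fell by 0.77 in RNAseq, a call lost without KCl culture 5 (adjusted p = 0.108).

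Genes of other isoprenoid branches, with 4 of 14 measured, moved both ways. Rabggtb, the beta subunit of the geranylgeranyl transferase of Rab proteins, rose by 1.04 in RNAseq and 1.34 in RF (adjusted p = 1.8e-06 and 3.9e-09). Rabggta, the alpha subunit of the same enzyme, had log2 fold changes of -0.98 and -0.64 (adjusted p = 8e-04 and 0.00697, edgeR), the latter lost without KCl culture 4 (0.161). Fnta, a farnesyltransferase subunit, had an RF log2 fold change of -0.67 (adjusted p = 0.00026), and Dhdds (dehydrodolichyl diphosphate synthase) an RNAseq change of -0.51 (0.0476) that was lost with any of 4 cultures left out, with adjusted p values between 0.0892 and 0.169.

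Sterol efflux and storage genes gave 10 measured members of 23, with 1 rise and 1 fall in RNAseq and 2 rises and 2 falls in RF. Abca1, the exporter of cholesterol to lipoprotein, fell in RNAseq from 41.3, 45.1 and 37.7 to 20.8 and 24.0 normalized RPKM (log2 -0.88, SE 0.13, adjusted p = 1.6e-06) and in RF by 0.56 (adjusted p = 1e-05, edgeR). Osbp, an oxysterol-binding protein, rose by 0.57 in RNAseq (adjusted p = 0.00625, or 0.0711 without KCl culture 4, and 0.30 with an adjusted p of 0.423 on coding reads alone) and by 0.54 in RF (0.00097). Lrp8, a receptor for apolipoprotein E and reelin, had RF values of 33.1, 35.0 and 34.0 against 18.6 and 14.7 (log2 -1.06, SE 0.16, adjusted p = 3.4e-06, edgeR). Its TE change of -0.70 (adjusted p = 0.0464) was -0.15 on coding RNAseq reads alone, and without untreated culture 2 or 3 or KCl culture 4 or 5 its adjusted p lay between 0.0524 and 0.677.

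Of 34 other fatty acid and triglyceride genes 15 were measured, with 1 rise in RNAseq, 3 rises and 3 falls in RF, and 2 falls in TE. Agpat1, an acyltransferase of glycerolipid synthesis, had 44.1, 43.2 and 55.9 normalized RPKM in RF without and 10.4 and 26.6 with KCl (log2 -1.16, SE 0.25, adjusted p = 0.00059, edgeR) while RNAseq was 42.1, 44.2 and 48.9 against 42.2 and 44.8. Its TE fell by 1.21 (adjusted p = 0.00263), or by 0.81 without KCl culture 4 (adjusted p = 0.332). Gpat4, the glycerol-3-phosphate acyltransferase of the endoplasmic reticulum, had log2 fold changes of -0.56 in RF (adjusted p = 0.0196) and -0.81 in TE (0.0394), both lost without KCl culture 5 (0.557 and 0.597) and without untreated culture 3 (0.0596 and 0.207), and the TE call also without KCl culture 4 (0.153). The fatty acid elongases Elovl4 (RNAseq log2 0.60, adjusted p = 0.0174) and Elovl2 (RF log2 0.60, adjusted p = 0.0332) lost these calls without KCl culture 4 (0.37 and 0.14), and Elovl2 also without KCl culture 5 (0.157) or untreated culture 1 (0.123).

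Fatty acid oxidation genes, with 15 of 27 measured, gave 2 rises and 2 falls in RNAseq, 3 rises in RF and no TE call. The largest change of all lists was that of Ppargc1a, a coactivator of mitochondrial genes, which went from 5.72, 6.82 and 5.38 to 23.5 and 22.3 normalized RPKM in RNAseq (log2 1.93, SE 0.17, adjusted p = 3.9e-12) and from 9.12, 10.3 and 8.22 to 61.4 and 55.5 in RF (log2 2.62, SE 0.15, adjusted p = 7.6e-14, edgeR). Acadl, an acyl-CoA dehydrogenase of mitochondria, had an RNAseq log2 fold change of 0.48 (adjusted p = 0.0172), a call lost without KCl culture 5 (0.148). Hadha, a subunit of the trifunctional protein of beta-oxidation, had an RF log2 fold change of 0.23 (adjusted p = 0.0367, edgeR), or 0.09 with library totals, and lost its call without either KCl culture.

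Markers of the cell types in these cultures were summed in each library. In bulk cultures fewer cells of a type and less RNA per cell cannot be told apart. Summed over the 9 listed of 10 astrocyte markers (all but Glul), RNAseq gave between 13817 and 14648 normalized RPM without and 11805 and 11900 with KCl. Of these 9, 3 fell in RNAseq while 4 rose in RF, Aqp4 and Slc1a3 being called in both. On coding RNAseq reads alone the falls of Aqp4, Slc1a3 and Slc1a2 lost their calls (adjusted p = 0.0926, 0.159 and 0.0932, edgeR). With library totals the RF calls of Slc1a3 and Gja1 were lost (0.269 and 0.42), while those of Aqp4 and Aldoc were kept. In TE Aqp4 rose by 0.87 (adjusted p = 1.6e-05, or 0.0645 without KCl culture 5) and Slc1a3 by 0.63 (adjusted p = 0.00449, or 0.119 and 0.228 without KCl culture 4 or 5, edgeR). The 11 listed of 14 neuronal markers summed to between 657 and 958 without and 833 and 845 with KCl, and 1 of 5 measured, Snap25, was called higher in RF (log2 0.87, adjusted p = 0.0318, edgeR), a call lost without KCl culture 4 (0.0783) or 5 (0.162) or untreated culture 3 (0.0687). Rbfox3, Gad1 and Slc17a7 were below the filter, and Dcx, Map2 and Slc17a6 were not analysed here. Microglial markers summed to 309 to 336 without and 287 to 311 with KCl, oligodendrocyte lineage markers to 1944 to 2070 and 1855 to 1858, and fibroblast and vascular markers to 709 to 853 and 663 to 748. Of the 3 measured fibroblast and vascular markers, Col1a1 and Col3a1, collagen genes, had RF log2 fold changes of -1.40 and -0.81 (adjusted p = 0.0277 and 0.00614). Their TE changes were -1.06 and -1.11 (adjusted p = 1.7e-07 and 1.2e-07, edgeR). Dcn went the other way, with 0.24 in RF (adjusted p = 0.0406) and 0.41 in TE (0.207, edgeR). Its RF call was lost in DESeq2 (0.0959) and with library totals (0.354). The TE call of Col1a1 was lost without untreated culture 1 (0.0946) or KCl culture 4 (0.0891) and in DESeq2 (0.194). The part of these shifts in the changes of the sterol genes was not tested.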

How the data were processed

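RNAseq and RF libraries were made from the same lysates of 3 untreated and 2 KCl cultures (10 libraries), and RF fragments were those protected from RNase I. The authors removed a further KCl replicate of low library size. The deposited values are raw counts per transcript region with no normalization. According to the methods and the submitters' processing notes, reads were trimmed (Trimmomatic 0.32), cleared of rRNA (STAR 2.3.1z8), aligned to mm10 transcripts of Ensembl without degenerate sequences and with multiply mapped reads kept (Bowtie2 2.2.2), and counted per region (bedtools 2.20.1). Isoforms and paralogs can thus share reads. Whether counting used strand is not given in the sources used here, so reads of overlapping genes on opposite strands cannot be told apart.

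Of 22534 listed transcripts, 98.4% matched the annotation of GRCm38. Transcripts with an RPKM of at least 10 in both assays in at least 2 cultures were tested (7262). This RPKM was scaled to all counted reads, unlike the normalized RPKM. edgeR 4.0.16 (R 4.3.3) was used with TMM within each assay and the robust quasi-likelihood test, over RNAseq reads of all regions, RF reads of the coding sequence, and for TE the interaction of assay and KCl with culture as a block. Pairing comes from the shared lysate and the culture numbers in the labels. Deviations of RNAseq and RF from their group means correlated between -0.0731 and 0.0629 across transcripts. Standard errors (SE) are approximate, the log2 fold change divided by the root of F. Alternatives were DESeq2 1.42.0, library totals, other filters, 1 transcript per gene, gene sums, 1 joint fit, coding RNAseq reads alone and leaving out each culture. The fits were tested on simulated data.

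The members and gene lists were chosen with earlier results of these data known. Named were all members called in an assay, regulators and rate-limiting enzymes, and up to 3 called genes per wider list and assay with the largest changes. Library depths were 3056286 to 3629959 reads in RNAseq and 1463654 to 7719915 in RF. Some genes of the wider lists are counted but not reported here by name.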

Additional observations from a re-analysis of the deposited data

How the results depend on the processing

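Of 891 gene-level alternatives, 859 left the call of a member as it was, 32 changed it and 0 reversed its direction. In RNAseq 10 of 22 members were called. Requiring at least 100 reads in every library left 12 members, of which 4 were called, and leaving out each culture in turn gave 8 to 12. Counted only over the 15 members that reached the minimum in 2 cultures of each group, an alternative chosen after seeing the data, 6 were called in RNAseq, 7 in RF and 0 in TE. With coding RNAseq reads alone the RNAseq count was 7. In RF 11 were called, 5 with at least 100 reads in every library, and 7 to 11 with a culture left out, the lowest, 7 higher and 0 lower, without KCl culture 4. In TE 0 were called, 1 each with library totals, with reads summed over the transcripts of a gene and with coding RNAseq reads alone, and 0 to 2 with a culture left out. Without the replicate block the TE count was also 0, so the block changed no call. Apart from the count over 15 members, the share of all transcripts called is not given here beside these alternative counts. They are therefore not set against a background. The median untreated TE of the 25 listed members was 2.67, 3.34 with coding RNAseq reads alone, and 2.5 to 2.91 with a culture left out. With library totals, calls over all transcripts moved from 1300 higher and 1095 lower to 1052 and 1533 in RNAseq, and from 1511 and 1460 to 1073 and 2107 in RF. The cause of these shifts was not tested. The depth of untreated culture 3 and KCl culture 4 in RF limits members with few footprints, Mvk, Insig2 and Scap among them, and with 3 cultures against 2 small changes cannot be told from 0.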
